A study of Mus musculus with 18 samples.

Results

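Illumina and Oxford Nanopore sequencers read circular RNAs prepared from the same mouse brains, and their reads are compared here circle by circle. The comparison takes the genotype and replicate pairs with both an Illumina table and an Oxford Nanopore Technologies (ONT) table. These were 8 pairs, or 16 of the 18 libraries that the labels describe. The ONT library of wild type replicate 1 is not analysed here, so the Illumina library of that brain was left out as well. The labels give both libraries of a pair the same genotype and replicate number and describe 1 cDNA preparation, without naming the animal. A circle was the same on both platforms where chromosome, start and end on GRCm39 were the same.

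A circular RNA forms when the spliceosome joins a downstream 5′ splice site to an upstream 3′ splice site of the same transcript. The closed ring has no free ends, so the exonuclease RNase R degrades linear RNA and spares it, and brain holds many such rings from neuronal and synaptic genes. A reverse transcriptase with strand displacement can run around the ring several times, which gives a long cDNA with repeated copies. Illumina reads short fragments of that cDNA and sees a circle where a fragment crosses the back-splice junction. ONT reads the cDNA end to end and can give the exons inside the circle too.

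RNA was taken from the entire brain of C57BL/6J males that were 3 to 4 months old. The 2 wild type pairs carry replicate numbers 2 and 3. Adar2KO mice (3 pairs) are Adar2-/-Gria2R/R, which removes the editing enzyme ADAR2 and supplies a Gria2 allele for the edited AMPA receptor subunit. Adar1-2KO mice (3 pairs) are Adar1E861A/E861A Ifih-/- Adar2-/-Gria2R/R, with an ADAR1 that binds RNA but cannot edit and no sensor MDA5. Both mutants share the loss of ADAR2 and the Gria2R allele. Each brain gave 5 ug of RNA, depleted of ribosomal RNA, treated with RNase R and amplified as cDNA for 14 cycles, and 9 further cycles followed for Illumina.

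Illumina libraries held 1516772 to 4308264 back-splice reads on 21736 to 71505 circles. ONT libraries held 186594 to 673705 reads on 22347 to 47174 circles, with circles of 2 or more reads listed. Adar1-2KO replicate 3 stood apart on both platforms, with the most reads (4308264 and 673705) and few circles (21736 on Illumina, the fewest, and 23441 on ONT). Reads amplified without molecular identifiers are not independent molecules. Levels below are in CPM, the circle's count scaled to the same fixed total of circle reads in every library. For host genes the reads scaled are those of circles with a single named host, a smaller sum, so host CPM runs slightly higher. A log2 value is ONT over Illumina, positive where ONT is higher.

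The platforms shared most of their reads but few of their rare circles. Over the 8 pairs, 17.4% to 50.1% of the Illumina circles were listed on ONT in the same brain, and these held 76.2% to 84.2% of the Illumina reads. From the ONT side, 35.4% to 48.5% of the circles and 74.7% to 80.4% of the reads were on circles that Illumina listed. Abundance ordered these shares. ONT listed only circles of 2 or more reads, and no ONT library held a circle under 1 CPM. Illumina listed circles from 1 read, so the minima differ. How far depth lowers the shares of rare circles was not tested. Of Illumina circles under 1 CPM, 3.65% to 10.03% were listed on ONT, against 61.5% to 78.2% at 10 to 100 CPM and 91.7% to 94.9% at 1000 CPM or more. ONT circles of 1 to 10 CPM, present in 7 libraries, were on Illumina in 21.7% to 33.2% of cases. The share was 45.5% to 72.2% at 10 to 100 CPM and 93.7% to 97.4% at 1000 CPM or more. Rare circles were thus often missing in both directions.

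Rank correlations had similar medians between platforms and between brains, though over unlike sets of circles. Over the 10848 to 19540 circles listed on both platforms in a pair, Spearman's correlation of log2 CPM was 0.692 to 0.862, with a median of 0.731. The highest value was that of Adar1-2KO replicate 3, and without it the range was 0.692 to 0.744. ONT libraries set against Illumina libraries of another brain had a median correlation of 0.707 within a genotype and 0.698 between genotypes. Pairs of Illumina libraries had a median of 0.723 over 14770 to 37193 circles, and pairs of ONT libraries 0.731 over 6765 to 15527 circles. The sets differ between comparisons, so the medians are not like for like. These are correlations across circles, which share depth and library and are not replicates.

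The circles with the highest mean over both platforms were within 2-fold between them by the fit, with 1 exception, though several were called. Ranking by this mean favours circles that both platforms list. The single-exon circle of Zfp609, which encodes a zinc finger protein, lies at chr9:65701904-65702777 and had the highest mean. It stood at 10244 to 20723 CPM on Illumina (median 16048) and at 7226 to 14975 CPM on ONT (median 10492), which is 15723 ± 3426 against 10891 ± 2658 CPM (SD, n = 8). The ranges overlapped, and ONT was lower within pairs (log2 -0.49, SE 0.13, adjusted p = 0.0159). Gigyf2, a regulator of translation, gave 10976 ± 2983 CPM on Illumina and 6954 ± 1968 CPM on ONT (SD, n = 8, log2 -0.60, adjusted p = 0.00516). Anks1b, a postsynaptic scaffold gene, was also lower on ONT (log2 -0.51, SE 0.10, adjusted p = 0.00458).

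Snrk, a kinase gene, went the other way, at 3956 ± 1676 CPM on Illumina and 5889 ± 1066 CPM on ONT (SD, n = 8, log2 0.74, SE 0.23, adjusted p = 0.0271). That call was lost without wild type replicate 3, without any 1 of the 3 Adar2KO pairs, or without Adar1-2KO replicate 2 (adjusted p of 0.0564 to 0.103), and with filters of 10 CPM (adjusted p = 0.0577) or 5 reads in 3 libraries (adjusted p = 0.126). The circles of Hdgfl3, Zfp148, Kat6b, Rbm4 and Elf2 had log2 values of -0.30 to -0.09, none past the threshold. With junction reads from a second Illumina caller, CIRI2, the last 4 of these turned positive, and Rbm4 then passed (log2 0.59, adjusted p = 0.00449). For these 4 circles the direction changed with the Illumina caller.

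Ankrd12, which encodes an ankyrin repeat protein that recruits histone deacetylases, was the exception. Its circle at chr17:66331071-66360086, with 7 exon blocks and a spliced length of 994 bases, was even over the ONT libraries, at 8791 to 11827 CPM. On Illumina it was listed in 3 libraries only, with 22129 and 27573 reads in Adar2KO replicates 1 and 2 and 57373 in Adar1-2KO replicate 3. The other 5 Illumina libraries did not list it, while their ONT partners held 1906 to 4018 reads. CIRI2 gave 131, 232 and 326 reads in the 3 libraries where CIRIquant gave those counts. The paired test did not pass for this circle (log2 10.36, SE 3.97, adjusted p = 0.0666).

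**Figure D1:**
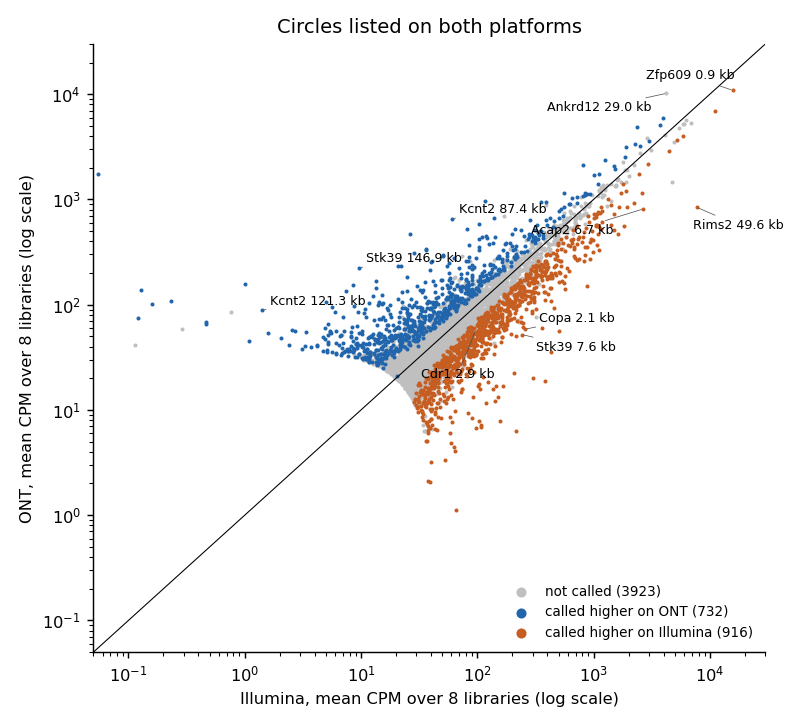
Mean CPM of 5571 circles on Illumina (horizontal) and ONT (vertical) over 8 libraries each, both axes log, with circles called higher on ONT in blue, called higher on Illumina in orange and not called in grey; the line marks equal levels. Points crowd along the line, the long Kcnt2 and Stk39 circles sit to its left, and the short Copa, Stk39 and Acap2 circles to its right.

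Across the 6106 circles that averaged at least 20 CPM over the platforms, 944 (15.5%) were called higher on ONT and 1239 (20.3%) higher on Illumina at an adjusted p under 0.05. Of these 6106, 323 were listed on Illumina alone and 212 on ONT alone. The filter let those in only through the platform that lists them, and all were called. This held even for Malat1 circles that 1 ONT library alone listed, so such a call does not mean that several pairs showed it. The counts of 944 and 1239 include these calls. Among the 5571 circles with reads on both, 732 were higher on ONT, 916 were higher on Illumina and 3923 were not called, so that 29.6% were called. Their median log2 was -0.04 with quartiles of -0.58 and 0.46, and 4222 of them (75.8%) lay within 2-fold. The count higher on ONT ranged from 527 to 2905 with other filters, and it was 624 with CIRI2 reads. Of the 3459 circles listed in all 16 libraries, 216 (6.24%) were called and had 8 ONT values all on 1 side of the 8 Illumina values, 129 above and 87 below.

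The platforms differed along the length of the spliced circle, and this held with either Illumina caller. The ONT tables give that length as the sum of the exon blocks seen in the long reads. Median log2 values are of the fit. Medians of pairs are of CPM ratios over circles listed in both libraries of the pair. Circles of 300 up to 400 bases had a median log2 of -0.79, and the medians of the 8 pairs ran from -1.05 to -0.55. Of those 695 circles, 298 were higher on Illumina and 24 on ONT. The median crossed 0 between 500 and 800 bases and reached 0.42 for circles of 1000 up to 1500 bases, with 0.05 to 0.56 over the 8 pairs. In that class of 781 circles, 211 were higher on ONT and 7 on Illumina. At 2000 bases or more the median was back at -0.01. With CIRI2 reads of 7 pairs the same circles had medians of -0.76 at 300 up to 400 bases and 0.40 at 1000 up to 1500 bases. Over 5571 circles Spearman's correlation between spliced length and log2 was 0.49, a description over circles that share libraries.

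By count of exon blocks, the median log2 went up from -0.53 for circles of 2 blocks to 0.55 for circles of 8 or more. The 408 circles of 1 block lay outside this order, with a median of -0.07. Among circles of 8 or more blocks, 253 of 702 circles were higher on ONT and 10 on Illumina.

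Genomic span behaved differently, because the result turned on the Illumina caller. Span counts the introns that are spliced out, so a short ring can come from a long stretch of genome. With CIRIquant reads, circles spanning 50000 up to 100000 bases had a median log2 of 1.07 and those of 100000 bases or more 1.05, and 217 of 395 and 55 of 96 were higher on ONT. Over the 8 pairs the medians of CPM ratios ran from 0.84 to 1.32 for the first of these classes. In the circles also tested with CIRI2, the medians were 0.14 and 0.07 with CIRI2 reads, against 1.07 and 1.06 with CIRIquant reads. Spearman's correlation between span and log2 was 0.37 with CIRIquant and 0.18 with CIRI2 over the same 5331 circles.

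The gap between the Illumina callers themselves opened at a span near 30000 bases. For circles with at least 50 CIRI2 reads, CIRIquant gave a median of 0.878 times the CIRI2 reads under 10000 bases and 0.836 times at 20000 up to 30000 bases. It gave 0.634 times at 30000 up to 40000 bases, 0.471 times at 50000 up to 60000 bases and 0.352 times at 80000 up to 100000 bases. Both tables come from the same Illumina libraries.

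**Figure D2:**
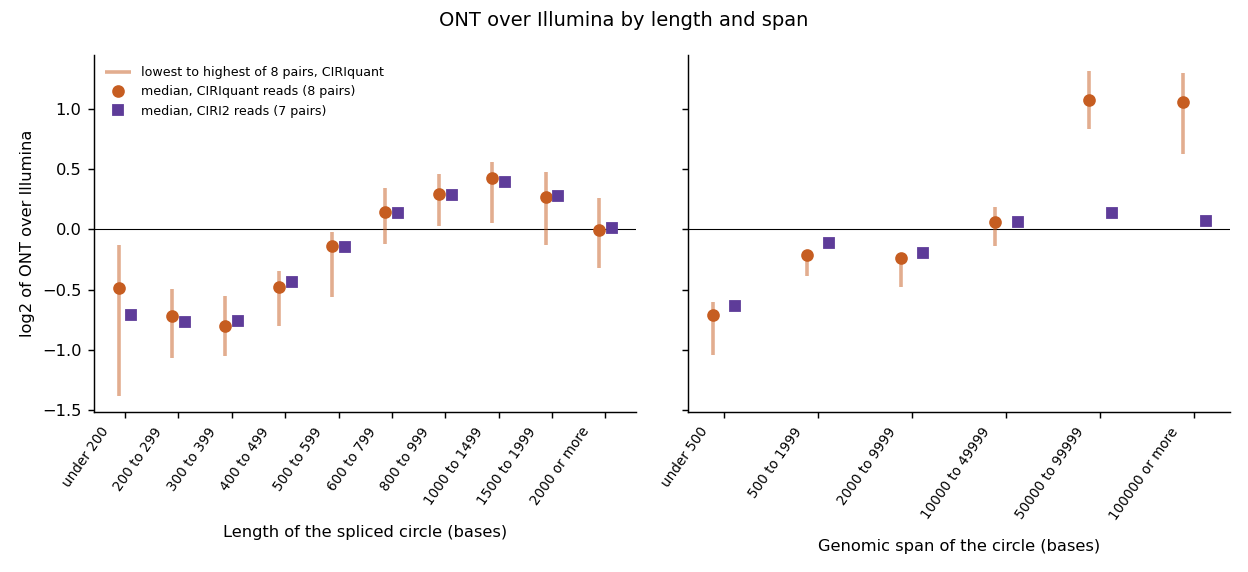
Median log2 of ONT over Illumina by spliced length (left) and by genomic span (right), for CIRIquant reads with bars from the lowest to the highest of 8 pairs (circles), and for CIRI2 reads of 7 pairs in the same circles (squares). Circles and squares follow each other along spliced length, and separate at spans of 50000 bases or more, near 1.07 against 0.14. Bars are from medians of CPM ratios within pairs and the points are medians of fitted values, so a point can lie outside its bar.

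The circles furthest apart are given among those listed in all 16 libraries with no overlap between platforms, so circles missing from some libraries are not ranked here. Of the 129 circles above, the 10 with the highest log2 values spanned 45634 to 146907 bases. When spliced, 8 of them had 842 to 1291 bases, while Hivep2 with 244 and Tmem164 with 196 bases were short. A circle of Kcnt2, a sodium-activated potassium channel gene, at chr1:140290687-140411971 had 12 exon blocks. It held 1 to 8 reads per library on Illumina and 15 to 48 on ONT, which is 0.464 to 2.75 CPM against 66.9 to 108 CPM (log2 6.01, SE 0.32, adjusted p = 1.9e-06). CIRI2 gave 1440 reads over 7 brains where CIRIquant gave 22, and the log2 with CIRI2 was 0.57. A shorter Kcnt2 circle with the same start, chr1:140290687-140378042, stood at 32.8 to 106 CPM on Illumina and 525 to 950.0 CPM on ONT. CIRI2 gave 13805 reads for it, CIRIquant 1220.

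Stk39, which encodes the kinase SPAK that regulates ion cotransporters, appeared at both extremes. Its circle of 15 blocks at chr2:68093579-68240485, 1291 bases when spliced, had 3.95 to 17.2 CPM on Illumina and 80.2 to 351 CPM on ONT (log2 4.58, SE 0.22, adjusted p = 1.9e-06). Its circle of 4 blocks at chr2:68137385-68144947, 284 bases when spliced, had 96.6 to 317 CPM on Illumina and 28.2 to 95.9 CPM on ONT (log2 -2.17, SE 0.20, adjusted p = 6.26e-05). For the long circle CIRI2 read 3796 times against 170 for CIRIquant, and log2 fell to 0.38. For the short circle the log2 with CIRI2 was -2.22.

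The other circles far higher on ONT came from Hivep2, Dgki, Mindy3, Bckdhb, Spire1, Tmem164 and Mctp1, at log2 values of 3.53 to 4.44. Dgki encodes a diacylglycerol kinase, Bckdhb a subunit of branched-chain keto acid dehydrogenase and Spire1 an actin nucleator. Over all 10 the log2 with CIRI2 lay between -1.02, for Tmem164, and 0.82, for Mctp1. Tmem164 was then called higher on Illumina (adjusted p = 0.0221), and of the other 9 only the 121285-base Kcnt2 circle and Mctp1 were still called higher on ONT.

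Of the 87 circles below, the 10 with the lowest log2 values were short when spliced, from 173 bases for Ddx17 to 474 bases for Birc6. Copa, which encodes a subunit of the COPI vesicle coat, gave a circle of 210 bases at chr1:171925241-171927334. It had 169 to 409 CPM on Illumina and 6.70 to 127 CPM on ONT (log2 -2.46, SE 0.54, adjusted p = 0.00602). Acap2, a GTPase-activating protein of membrane traffic, had the most reads of the 10, with 2673 ± 582 CPM on Illumina and 812 ± 498 CPM on ONT (SD, n = 8, log2 -1.87, adjusted p = 0.00207). Galnt2, Aak1, Pak3, Nfatc3 and Ano3 completed the group, at log2 values of -2.14 to -1.84. With CIRI2 the 10 values were -2.65 to -1.62, all called.

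The ONT levels of several of these circles were unequal between genotypes. Every Adar1-2KO library was above every wild type and Adar2KO library for Copa, Acap2, Nfatc3, Aak1, Ano3, Galnt2 and Ddx17. Acap2 had 1186 to 1547 CPM in Adar1-2KO and 322 to 654 CPM in the other genotypes. The short Stk39 circle, Pak3 and Birc6 did not show this. For Ddx17 the Illumina libraries showed it too, with 521 to 603 CPM in Adar1-2KO and 240 to 498 CPM in the other genotypes. These circles were ranked by platform, and how many of all circles show the pattern was not counted. In wild type the Copa circle had 29.2 and 53.6 CPM (6 and 10 reads). It had 6.70 to 13.7 CPM in Adar2KO (3 to 5 reads) and 108 to 127 CPM in Adar1-2KO (32 to 81 reads). On Illumina the 3 groups overlapped for Copa. Neither interaction of platform and genotype passed, with log2 -2.50 for Adar2KO (SE 0.57, adjusted p = 0.697) and 1.14 for Adar1-2KO (SE 0.51, adjusted p = 1).

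A set of abundant circles appeared on 1 platform only. Listed in all 8 Illumina libraries and in no ONT library were 1244 circles, of which 89 averaged 100 CPM or more. Listed in all 8 ONT libraries and in no Illumina library were 188 circles, 34 of them at 100 CPM or more, and CIRI2 listed none of these 34. Of all circles listed in the 8 Illumina libraries with a mean of 100 CPM or more, 1268 were in all 8 ONT libraries, 40 in 7 and 89 in none, with 4 to 20 circles at each number from 1 to 6. These circles were chosen for their absence from a platform, so the counts describe them and test nothing.

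Small shifts of the ends covered few of them. Of the 89 Illumina circles, 9 had an ONT circle with both ends within 50 bases, and 4 of these within 5 bases. Elf2 is an example, with ends 3 bases apart from the abundant circle named above. For 16 of the 89, other ONT circles used both ends, for 46 they used 1 end and for 27 none. Of the 34 ONT circles, 4 had an Illumina circle within 50 bases.

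Ptk2, which encodes focal adhesion kinase, had the most abundant circle listed on Illumina alone. The circle at chr15:73263608-73266593 held 4331 to 14935 CIRIquant reads per library, or 2933 ± 851 CPM (SD, n = 8), and CIRI2 gave 57907 reads over 7 brains. No ONT library listed it, and the nearest ONT circle shared its end and started 585 bases away, with 800 reads in all. Aff3, a transcription elongation factor gene, followed with 1553 ± 197 CPM, then Camta1, a calmodulin-binding transcription activator gene, with 1042 ± 285 CPM. Cacna1b, the N-type calcium channel gene, had 1036 ± 345 CPM (all SD, n = 8). Circles of Tcf20, Asph, Rims2, Stag1, Zfp62 and Faf1 completed the 10, with means of 1007 down to 668 CPM.

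Rims2, which encodes an active zone protein that ties vesicles to calcium channels, had a larger case that was chosen after its values were seen. Its circle at chr15:39430339-39479906 held 11642 to 39756 Illumina reads per library, 7684 ± 1124 CPM (SD, n = 8). On ONT it was listed in wild type replicate 2, with 1386 reads, and in none of the other 7 libraries. No other ONT circle had both ends within 50 bases of it.

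On the ONT side, Ankrd12 again led the circles found in every library. A second circle of it at chr17:66344488-66360086, which shares its end with the first and has 4 blocks and 502 bases, held 149 to 1361 ONT reads per library, 1056 ± 432 CPM (SD, n = 8). A circle of Zfx, a zinc finger gene of the X chromosome, held 156 to 604 reads, 866 ± 142 CPM. A circle of Ppm1b, a protein phosphatase gene, held 122 to 301 reads, 544 ± 109 CPM (both SD, n = 8). All 3 joined AG to GT splice sites. For Zfx, Illumina listed a circle with the same end and a start 24 bases away, with 204 reads over the 8 libraries.

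Of the 10 ONT-only circles of highest mean, 6 came from Malat1, a long nuclear RNA with very high levels in brain. Each of 6 Malat1 circles was in 1 to 3 ONT libraries with 1261 to 2848 reads where it was listed. The circle at chr19:5850763-5851199, for example, had 1651 and 1412 reads in wild type replicates 2 and 3, 1285 in Adar1-2KO replicate 2 and none in the other 5. Position thus varied between libraries while the host was the same. The last of the 10 was an antisense circle at LOC118568312, with 51, 279 and 806 reads in 3 libraries.

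The splice sites reported for ONT circles split them into a class that Illumina also saw and classes that it mostly did not. The ONT tables give the bases next to each end, AG-GT for the usual pair, sometimes with an asterisk whose meaning the sources used here do not give, and 2 offsets. Circles at AG-GT without an asterisk made up 41.8% to 53.2% of ONT circles and 73.3% to 79.8% of ONT reads. Illumina listed 74.8% to 90.5% of them in the same brain, holding 92.6% to 96.3% of their reads.

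Circles at AG-GT with an asterisk held 14.2% to 18.7% of ONT reads, and Illumina listed 8.10% to 11.9% of them. Within these, the listed share was 52.5% to 81.9% where both offsets were 0 and 0.982% to 2.10% for other offsets. Of circles with no splice site, 0.573% to 1.34% were on Illumina, and of those marked as lariats, 94 to 297 per library, none was.

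Host genes repeated this split. Circle reads were summed per host, and of 3880 hosts at 20 CPM or more 621 (16%) were called higher on ONT and 711 (18.3%) higher on Illumina. The median log2 was -0.06 and 78.5% lay within 2-fold. Hosts with 90% or more of their ONT reads at AG-GT without an asterisk, 1857 genes, had a median log2 of -0.11, with 12.7% higher on ONT. The 364 hosts with under 10% had a median of 1.39 with 52.5% higher on ONT and 16.5% higher on Illumina. The share uses ONT reads that also enter the log2, so this is a description.

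**Figure D3:**
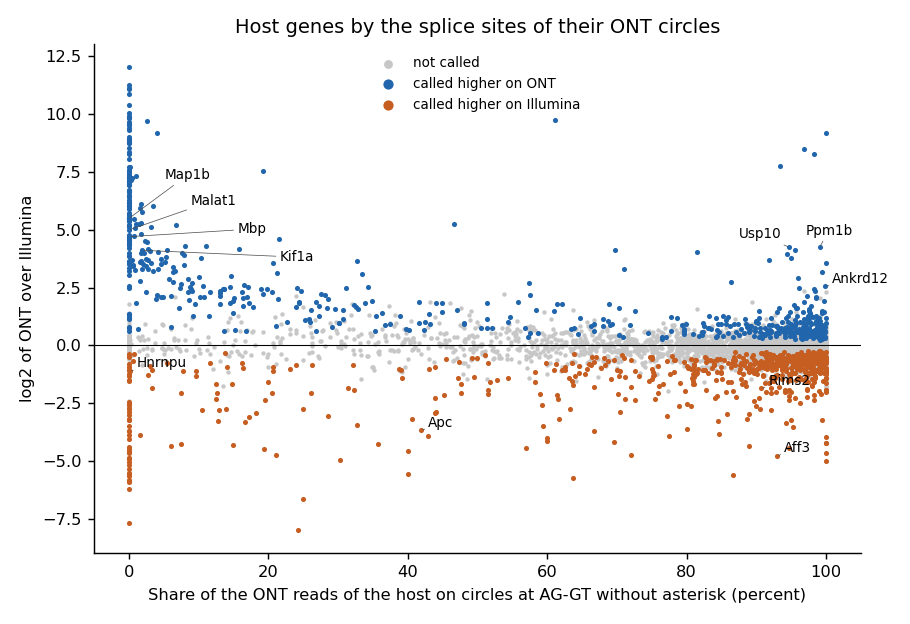
Log2 of ONT over Illumina for 3854 host genes with ONT reads (vertical) against the percent of their ONT circle reads at AG-GT without an asterisk (horizontal), coloured by call. Hosts at the left edge, such as Map1b, Malat1, Mbp and Kif1a, reach log2 values of 4 and more, and most hosts at the right edge lie near 0.

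Hosts too were ranked among those called, listed in all 16 libraries and with no overlap between platforms, which leaves out hosts with larger values that some libraries did not list. By this rule the hosts furthest above on ONT were led by Map1b, Map1a and Malat1. Map1b and Map1a are genes of microtubule-associated proteins of neurons. Map1b had 0.473 to 13.8 CPM on Illumina and 76.9 to 262 CPM on ONT (log2 5.48, SE 0.50, adjusted p = 5.85e-06). Map1a had 0.768 to 19.4 CPM on Illumina and 32.6 to 531 CPM on ONT (log2 5.07, SE 0.38, adjusted p = 1.13e-06). Malat1 had 402 ± 120 CPM on Illumina and 13193 ± 4232 CPM on ONT (SD, n = 8, log2 4.98, SE 0.19, adjusted p = 8.07e-09). Its circles took 0.646% to 1.82% of all ONT reads and 0.0287% to 0.0595% of Illumina reads. Of its 348 ONT circles, 11 were also on Illumina, which listed 695.

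Kif1a, the gene of an axonal kinesin for synaptic vesicle precursors, stood at 23.5 to 81.6 CPM on Illumina and 596 to 1371 CPM on ONT (log2 4.11, SE 0.27, adjusted p = 4.68e-07), and Septin3 at log2 4.00. In the median library, 0% of the ONT reads of Map1b, Map1a, Malat1, Gm9833, Kndc1 and Septin3 and 1.88% of those of Kif1a were at AG-GT without an asterisk. Ppm1b (log2 4.24), Usp10 (4.23) and Rnf121 (4.12) differed from them, with medians of 99.4%, 96.2% and 100%. Usp10 encodes a deubiquitinase and Rnf121 a ubiquitin ligase of the endoplasmic reticulum.

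By the same rule the hosts furthest below were Aff3 (log2 -4.77, SE 0.18, adjusted p = 8.07e-09), 6530403H02Rik (-3.90), A230006K03Rik (-3.85) and Apc, the gene of a scaffold that controls beta-catenin (-3.67). Aff3 had 1231 to 1895 CPM on Illumina and 36.8 to 93.3 CPM on ONT, with no overlap. Camta1, Tdrd3, Ranbp9, Phf21a, Tax1bp1 and Btaf1 followed at -3.42 to -3.03. In the median library, the ONT reads at AG-GT without an asterisk were 0% for A230006K03Rik, 33.0% for Camta1 and 58.9% for Apc. They were 96.7% for Aff3 and 100% for Tdrd3 and Tax1bp1. A low share thus occurred among hosts lower on ONT too. On Illumina the circle named above, listed there alone, had 1553 CPM beside a mean of 1665 CPM for Aff3 as host. That of Camta1 had 1042 beside 1157 CPM. Circle and host CPM are scaled to slightly unlike sums. Phf21a, at 26.7 to 4235 CPM on ONT, lost its call without wild type replicate 2 and without Adar2KO replicate 2 or 3 (adjusted p of 0.0587 to 0.0665). All 20 hosts kept their sign with CIRI2.

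Lists of related genes held members called in both directions, and over all hosts 34.3% were called. Of 26 known abundant hosts of brain circles, 7 were higher on ONT, 5 were higher on Illumina, and their median log2 was -0.07 beside -0.06 over all hosts. Ankrd12 summed over its circles was higher on ONT, at 819 to 14446 CPM on Illumina and 11788 to 15605 CPM on ONT (log2 2.55, SE 0.62, adjusted p = 0.00662). With CIRI2, which gave few reads for its long circle, the log2 was 4.87 (SE 0.11). Rims1, an active zone gene, stood at -0.21 and was not called. Among 32 presynaptic genes, 8 were higher on ONT and 9 on Illumina, with a median of 0.08. Rims2 was lower on ONT without overlap, at 2697 to 10215 CPM against 10532 to 14689.5 CPM (log2 -1.85, SE 0.22, adjusted p = 4.36e-05). Erc1, its partner in the active zone, was lower too (log2 -1.39, SE 0.25, adjusted p = 0.000863).

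Of 34 genes of the glutamatergic postsynapse, 7 were higher on ONT and 7 on Illumina, median -0.10. Dlgap1, a scaffold of the postsynaptic density, was lower on ONT (log2 -0.34, SE 0.08, adjusted p = 0.006), but not with CIRI2 (log2 -0.12, adjusted p = 0.302). Sipa1l1, Nlgn1 and Dlg1 lay between -0.11 and 0.06 and did not pass. Of 23 splicing and circular RNA regulators, 6 were higher on ONT and 3 on Illumina, median 0.04. Rbfox1, a neuronal splicing factor, was lower on ONT (log2 -1.46, SE 0.15, adjusted p = 1.81e-05), as was Hnrnpu (log2 -1.10, SE 0.18, adjusted p = 0.00042). In the median library 0% of the ONT reads of Hnrnpu were at AG-GT without an asterisk. Mbnl2 was higher (log2 1.02, SE 0.37, adjusted p = 0.0479), a call lost without either wild type pair, Adar2KO replicate 3 or Adar1-2KO replicate 1 (adjusted p of 0.0545 to 0.127).

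Of 25 voltage-gated channel genes, 7 were higher on ONT and 5 on Illumina, median 0.08. Cacna1b was lower on ONT (log2 -2.26, SE 0.13, adjusted p = 2.06e-07), and without overlap so was the sodium channel gene Scn8a (log2 -0.66, SE 0.08, adjusted p = 7.43e-05). Kcnma1, the BK potassium channel gene, was higher, at 598 to 902 CPM against 389 to 536 CPM (log2 0.67, SE 0.10, adjusted p = 0.000332), though with CIRI2 it had log2 0.25 and adjusted p = 0.0663.

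Markers of the main cell types of brain were present, with 15 of 17 oligodendrocyte, 14 of 14 astrocyte, 10 of 11 microglial and 11 of 12 endothelial and pericyte markers listed in some library. Of oligodendrocyte lineage markers 9 of 17 reached the filter, 3 were higher on ONT and 1 on Illumina, and of astrocyte markers 6 of 14, with 4 and 0. Mbp, a myelin gene, had log2 4.69 (SE 0.57, adjusted p = 5.65e-05), and in the median library 0% of its ONT reads were at AG-GT without an asterisk. Slc1a2, the main glutamate transporter of astrocytes, had log2 1.83 (adjusted p = 0.00618) with 25.8% there, and Slc4a4 log2 0.68 (adjusted p = 9.53e-05) with 96.8%. With CIRI2 reads Slc4a4 had log2 0.11 (adjusted p = 0.389). Tmeff2 (log2 -0.71, adjusted p = 0.042) and the microglial gene Mertk (log2 -0.80, adjusted p = 0.0352) were higher on Illumina. Both calls were lost with CIRI2 (adjusted p of 0.147 to 0.152) and without any 1 of several pairs, wild type replicate 3 among them for both. Of 5 ependyma and choroid plexus markers tested, Cfap54 was called (log2 -1.18, adjusted p = 0.00224). No endothelial or pericyte marker reached 20 CPM.

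The circle that led its host was often the same on both platforms. Among hosts with at least 20 reads on each platform, 1403 to 2636 per pair, the most abundant circle was the same in 65.1% to 73.1%. Of 1171 hosts measured in all 8 pairs, 504 (43.0%) had the same leading circle in every pair and 54 (4.61%) a different one in every pair. In Ptk2, Tasp1, Stag1, Ash1l, Faf1, Cacna1b and Malat1, the most frequent Illumina leader was a circle that ONT did not list.

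Atrnl1, Arhgap10 and Dock4 differed by rank alone, as each platform listed both leading circles. Atrnl1, which encodes an attractin-like membrane protein, led on Illumina with a circle of 26316 bases span (1056 ± 307 CPM on Illumina, 575 ± 261 CPM on ONT). On ONT its leader was a circle with the same start and a span of 45874 bases, at 521 ± 239 CPM on Illumina and 810 ± 300 CPM on ONT (all SD, n = 8). Arhgap10, a GTPase-activating protein gene, had 320 ± 203 and 322 ± 37.2 CPM for the circle that led on Illumina in 6 pairs. Its circle of 54430 bases span, at 199.3 ± 15.7 CPM on Illumina and 464 ± 97.9 CPM on ONT, led on ONT. At the spans of the ONT leaders of Atrnl1 and Arhgap10, CIRIquant gave medians of 0.556 and 0.471 times the CIRI2 reads. Whether the leaders change with CIRI2 reads was not tested.

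A comparison of genotypes could depend on the platform. In a model with platform, pair and genotype, the Adar2KO difference from wild type was unequal between platforms for 7 circles (0.115%), and the Adar1-2KO difference for 5 (0.0819%), all lower on ONT. At an unadjusted p under 0.05 there were 253 and 207 circles. Wild type had 2 pairs, and without 1 of them the counts rose to 30 or 28 and to 36 or 25, where the remaining pair is taken to vary like the mutants. The 2 mutants share the wild type libraries, so their values are given side by side.

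Of these circles, 6 were listed in neither wild type Illumina library and in all 6 mutant ones, while ONT listed them in all 8 libraries. Glcci1, a glucocorticoid-induced gene, had 0 Illumina reads in both wild type libraries. It had 991, 665 and 928 in the 3 Adar2KO libraries, and the Adar1-2KO libraries gave 1000, 603 and 1227. On ONT the same brains gave 19 and 33, then 58, 52 and 54, then 54, 35 and 107 reads, which is 92.6 to 177 CPM with no gap between genotypes. CIRI2 gave 10, 8 and 20 reads in Adar2KO and 11 and 28 in the 2 Adar1-2KO brains with such a table. The Adar2KO interaction passed with CIRIquant (adjusted p = 0.000289) and not with CIRI2 (adjusted p = 0.565).

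Dennd1b, a regulator of the endosomal GTPase Rab35, also had 0 Illumina reads in both wild type libraries. The 3 Adar2KO libraries held 626, 570 and 657, and those of Adar1-2KO 626, 244 and 1537. ONT gave 48 and 34, then 184, 152 and 173, then 62, 19 and 175 reads. In CPM these were 182 to 234 in wild type, higher in Adar2KO at 339.6 to 505.0 and overlapping with wild type in Adar1-2KO at 64.0 to 259.8. Lrch1 had 0 and 0, then 452, 410 and 470, then 512, 446 and 166 Illumina reads, and ONT gave 17 and 12, then 27, 51 and 40, then 37, 27 and 19. For both, CIRI2 also listed no wild type library and the interactions passed with it (adjusted p of 0.00542 to 0.0168). Thus ONT held reads of these circles in wild type brains where neither Illumina caller listed them. The callers are not independent here, since every circle in the CIRIquant table of a brain was in its CIRI2 table.

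Fhod3, Chchd6 and 0610010F05Rik were likewise at 0 in wild type on Illumina, and had 2 to 15 ONT reads there. On ONT, Fhod3 had 58.5 and 80.4 CPM in wild type and 70.7 to 170.2 CPM in the mutants. Chchd6 had 24.4 and 10.7 CPM in wild type and 11.1 to 30.2 CPM in the mutants. The 0610010F05Rik circle ran the other way on ONT, with 53.6 and 32.2 CPM in wild type and 13.7 to 20.8 CPM in the mutants. Atp2b4, the gene of a plasma membrane calcium pump, was listed in all libraries. It had 333 and 350 Illumina reads in wild type and 1056 to 2029 in the mutants, and 83 and 99 against 149 to 276 on ONT. CIRI2 gave 1280 and 987 reads in wild type and 1218 to 2347 in the 5 mutant libraries with such a table, and the interaction did not pass (log2 -0.24, adjusted p = 1, against log2 -1.71 and adjusted p = 0.0478 with CIRIquant). The Adar2KO calls of Chchd6 and 0610010F05Rik were lost without any 1 pair other than wild type replicate 3, and that of Atp2b4 without any 1 of the 8 pairs (adjusted p of 0.0616 to 0.362). The Adar2KO call of Fhod3 was lost without any 1 of the Adar2KO pairs or Adar1-2KO replicate 2 (adjusted p of 0.0588 to 0.083).

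**Figure D4:**
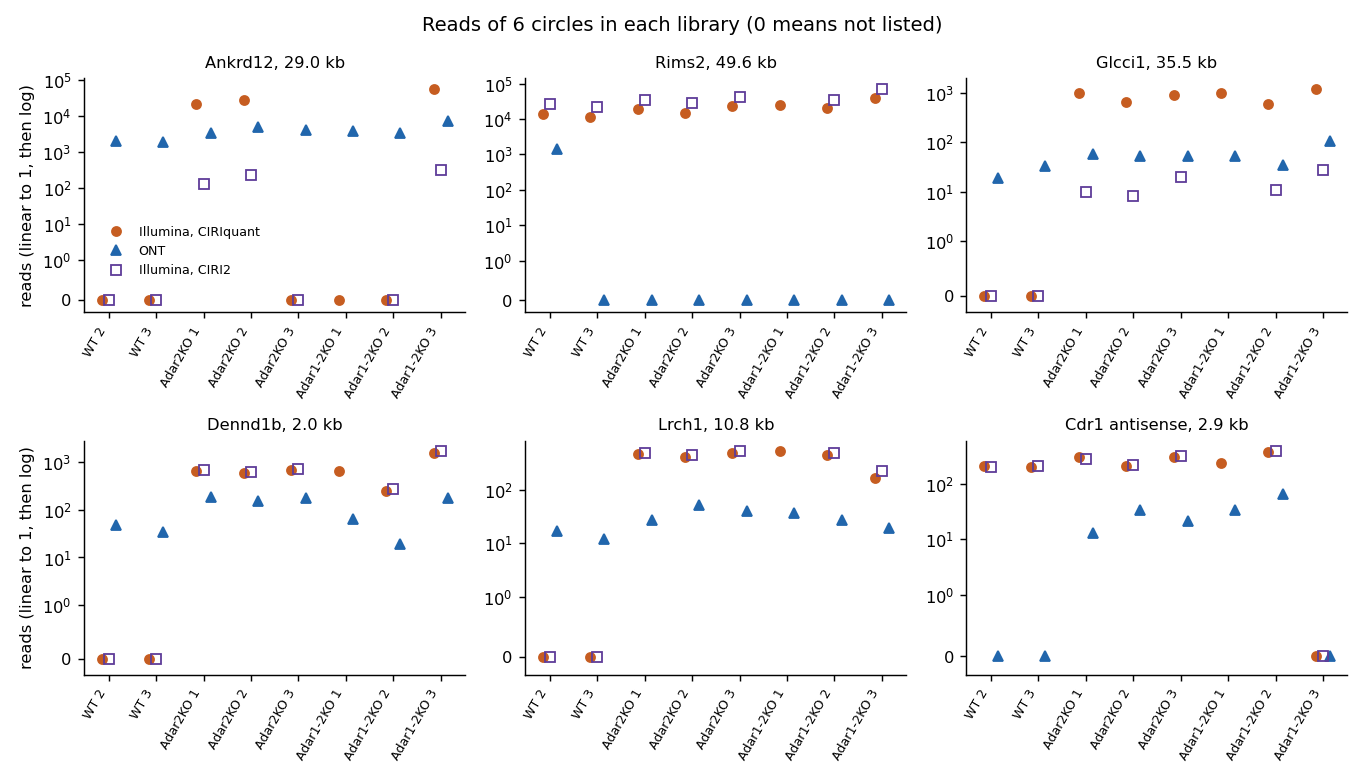
Reads per library of 6 circles on a vertical axis that is linear up to 1 and log above it, by pair (horizontal), for Illumina with CIRIquant (circles) and CIRI2 (open squares) and for ONT (triangles). Points at 0 were not listed, and Adar1-2KO replicate 1 has no CIRI2 table. The Ankrd12 circle is at 0 in 5 Illumina libraries and near 2000 or more ONT reads throughout, and the Rims2 circle is at 0 in 7 ONT libraries.

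The genes altered in these mice gave few circle reads. The Adarb1 circle at chr10:77130537-77148360 was listed in neither wild type brain on either platform. In the mutants it had 177, 239, 236, 288, 134 and 724 Illumina reads and 41, 38, 27, 27, 18 and 66 ONT reads (log2 -0.13, SE 0.23, adjusted p = 0.729). The Gria2 circle at chr3:80634139-80648505 had 136 and 112 CPM in wild type and 24.1 to 56.3 CPM in the mutants on Illumina. On ONT, where it held 5 to 13 reads per library, it had 63.3 and 53.6 CPM in wild type and 11.9 to 28.2 CPM in the mutants. Both platforms thus put the wild type libraries highest, and in bulk tissue fewer cells of a type and less RNA per cell cannot be told apart in such a difference between genotypes. Within pairs ONT was lower (log2 -0.92, SE 0.19, adjusted p = 0.00492). The Adar circle was below the filter, with 3 to 41 Illumina reads and up to 8 ONT reads. Summed over its circles, Adar had 26.3 ± 12.5 CPM on Illumina and 52.1 ± 21.4 CPM on ONT (SD, n = 8, log2 1.03, adjusted p = 0.013). Ifih1 had 2 reads in 1 Illumina library.

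The circle antisense to Cdr1, known as a sponge for miR-7 in neurons, was looked at after its values were seen. At chrX:60226854-60229780 it had 206 and 201 Illumina reads in wild type and 207 to 373 in the mutants other than Adar1-2KO replicate 3, which listed none. ONT listed it in 5 libraries with 13 to 64 reads and in neither wild type library. The difference did not pass (log2 -1.10, SE 0.67, adjusted p = 0.241).

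Whole libraries differed in number, span and class of circles, tested over the 8 pairs by exact sign flips with 15 measures in the family, where 0.00781 is the smallest p. Illumina listed 59574 ± 16330 circles and ONT 34353 ± 10129 (SD, n = 8, exact p = 0.0156, adjusted p = 0.0167), with Adar1-2KO replicate 3 the exception. At the depth of the smaller library of each pair the order was the reverse, with 20506 ± 5089 circles expected on Illumina (SD, n = 8, exact p = 0.00781, adjusted p = 0.00901). These depths were not equal. The ONT total held only reads on circles of 2 or more reads. Illumina reads drawn to that total could also fall on circles below this minimum, which were then not counted. This favours ONT, so the order at equal depth is not settled. With only circles of 5 or more reads kept, the mean difference was -6558 circles, which is not like for like. ONT then counted circles of 5 or more reads, while Illumina at the smaller depth still counted those of 2 or more. No order is read from it. Circles came from 8639 ± 1315 hosts on Illumina and 7261 ± 1127 hosts on ONT (SD, n = 8, exact p = 0.0234, adjusted p = 0.0234).

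By span, ONT had more of its reads in short and in very long circles. Circles spanning 500 up to 2000 bases held 15.5% ± 0.911 of Illumina reads and 24.7% ± 1.61 of ONT reads, and those of 50000 up to 100000 bases 3.72% ± 0.259 and 5.70% ± 0.292. The middle was lower on ONT, with 30.4% ± 0.724 against 23.3% ± 0.624 at 2000 up to 10000 bases and 46.0% ± 1.21 against 39.4% ± 1.01 at 10000 up to 50000 bases (all SD, n = 8, all 8 pairs in 1 direction, exact p = 0.00781, adjusted p = 0.00901). The median span over reads was 10454 ± 645 bases on Illumina and 8698 ± 467 bases on ONT.

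These results on span turned with the circles counted and with the caller. Among circles listed on both platforms in the brain, the median span was 2085 bases larger on ONT, and the share at 500 up to 2000 bases was lower on ONT (-0.833 percentage points). With CIRI2 reads, the share at 50000 up to 100000 bases was lower on ONT (-1.63 percentage points, exact p = 0.0156, adjusted p = 0.0213).

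By class, exon circles held 95.1% ± 0.168 of Illumina reads and 85.5% ± 1.57 of ONT reads. Intergenic circles held 1.26% ± 0.0797 and 8.48% ± 1.22, and antisense circles, which lie opposite a gene, 0.240% ± 0.0299 and 2.33% ± 0.290 (all SD, n = 8, all 8 pairs in 1 direction, exact p = 0.00781, adjusted p = 0.00901). Circles that any Illumina library listed took their Illumina class, and the rest took their ONT class. These shares thus mix 2 annotations, and class is tied to listing on Illumina. Illumina listed 1.37% to 2.70% of the intergenic ONT circles of the same brain and 0.424% to 1.18% of the antisense ones. Of the exon ones it listed 57.4% to 71.4%. Intron circles, at 3.39% ± 0.127 and 3.73% ± 0.213 of reads, were higher on ONT in 8 of 8 pairs, but lower on ONT among circles of 5 or more reads (-0.529 percentage points).

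**Figure D5:**
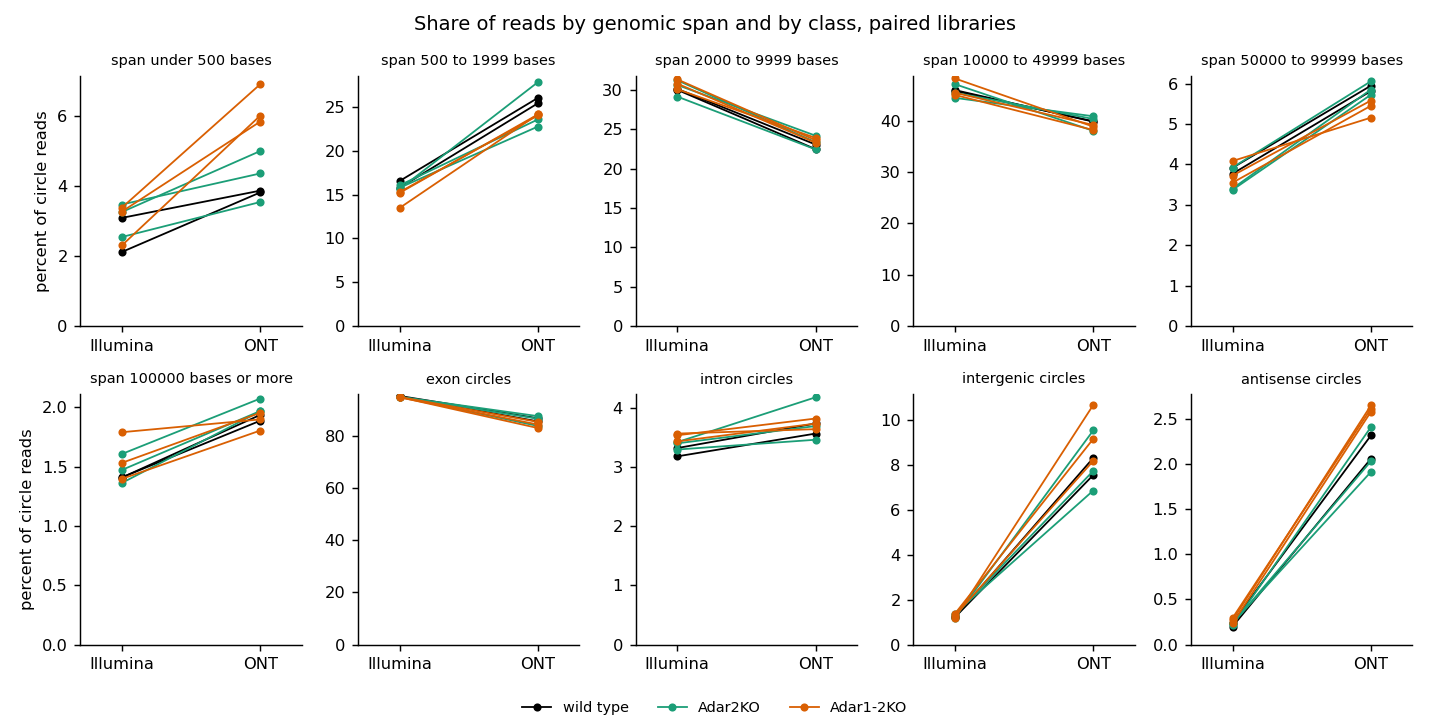
Percent of circle reads by genomic span and by class (vertical axes from 0) on Illumina and ONT, with a line for each of 8 pairs coloured by genotype. All lines of the intergenic and antisense panels rise to ONT, and those of the panel of 2000 up to 10000 bases fall, while the panel of 100000 bases or more rises from 1.497% to 1.94% on average.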

How the data were processed

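Circular RNA was read from whole brain on Illumina and ONT, and the 16 libraries of 8 pairs were used. The Illumina tables hold back-splice read counts that the authors made with CIRIquant 1.1.2 on GRCm39, per the file headers, and a deposited junction ratio, a fraction, was not used. Deposited CIRI2 tables (7 of the pairs) hold junction read counts of the same libraries. The authors' ONT tables hold read counts for circles of 2 or more reads. Per the file headers and names these were cleaned without repeat and ribosomal regions. Their caller is not given in the sources used here, and the effect of that cleaning was not tested. In 3 Adar1-2KO Illumina tables the columns were shifted by the deposit and were put back by their content.

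Counts were joined by chromosome, start and end. Circles, and hosts summed over circles, were kept at a mean of the platform means of at least 20 CPM. They were fitted with edgeR 4.0.16 (quasi-likelihood, TMM, pair as block) in R 4.3.3, with Benjamini-Hochberg adjustment at 0.05. Each SE is the absolute log2 over the square root of the F statistic of its test, and not a separate estimate of error. Whole-library measures were tested by exact two-sided sign flips over pairs (scipy 1.17.1). DESeq2 1.42.0, other filters, scaling and matching, CIRI2 reads, no block and each pair left out were tried. The scripts were tested on simulated data.

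Named were the 10 most abundant circles, the 10 furthest apart each way among those called, listed in all 16 libraries and with no overlap, the 10 highest listed on 1 platform, those with a called interaction, the altered genes, up to 4 hosts per gene list (1 host is not reported here), the 10 hosts furthest apart each way by the same rule and the 10 with a different leading circle. Members and lists were chosen with earlier results of these data known. The pairing comes from genotype and replicate number in the labels. Deviations from genotype means over 3459 circles correlated at 0.00805 to 0.784 between libraries of the same number (median 0.104) and at -0.643 to 0.411 for other numbers.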

Additional observations from a re-analysis of the deposited data

Results flagged for a closer look

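Adar1-2KO replicate 3 lay apart from the other 7 pairs in 2 of 15 whole-library measures. Its gain on ONT in the share of reads from circles of 50000 up to 100000 bases was 1.07 percentage points, where the next lowest pair had 1.86. For circles of 100000 bases or more it was 0.108 percentage points, where the next had 0.408. Chance flags about 1 in 20 such groups. Both results kept their direction and their call without this pair.

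The difference between Adar2KO and wild type was unequal between platforms for 7 circles. The adjusted p-values of the edgeR interaction were 0.000289 for Glcci1, 0.00082 for Dennd1b, 0.00246 for Lrch1, 0.0163 for Fhod3 and 0.0478 for each of Chchd6, 0610010F05Rik and Atp2b4. For Adar1-2KO, which shares the wild type libraries, they were 0.00032 for Glcci1 and for Dennd1b, 0.00258 for Lrch1, 0.00482 for Fhod3 and 0.0443 for Chchd6. All went in 1 direction, with the mutants lower against wild type on ONT than on Illumina. For 0610010F05Rik the mutants were below wild type on ONT. All but Atp2b4 (log2 -1.71, SE 0.22) had no Illumina reads in wild type.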

How the results depend on the processing

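Counts of circles followed the filter. With 944 higher on ONT, other settings gave 553 (50 CPM), 527 (5 reads in 3 libraries), 2905 (no filter) and 624 (CIRI2). With 1239 higher on Illumina, they gave 1917 (10 CPM), 726 (50 CPM) and 4590 (no filter). Hosts without a filter numbered 1108 and 1380. The Adar2KO interaction gave 4 circles without scaling and at 10 CPM, 20 with DESeq2, 60 without a filter and 3 with CIRI2, and the Adar1-2KO interaction 24 with DESeq2, 58 without a filter and 3 with CIRI2.

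Without the replicate block, that is without the pairing, 693 and 903 circles, 514 and 599 hosts, and 7 and 8 interactions were called, and whole-library tests had adjusted p of 0.000233 to 0.044 in exact permutation tests. By deviations from genotype means, 7 of 8 Illumina libraries correlated best with the ONT library of their own number within the genotype. This is a weak hint. With 2 wild type libraries the deviations mirror each other (0.0652 and -0.0652), so their matches are not separate. Own-number correlations were 0.00805 to 0.142 in Adar2KO and 0.605 to 0.784 in Adar1-2KO.

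Leaving out 1 pair gave 788 to 1064 and 1098 to 1244 circles, 516 to 683 and 633 to 774 hosts, and 3 to 30 and 4 to 36 interactions. The whole-library differences then kept their direction and call.

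With circles of 5 or more reads, the difference was -6558 circles at the smaller depth, where the platforms had unlike minimum reads. It was 0.297 percentage points in the share of the top 10, 150.4 bases in median span, 0.547 points under 500 bases and -0.529 points for introns. With circles listed on both platforms it was 2085 bases in median span, -1.24 points under 500 bases, -0.833 points at 500 up to 2000, 0.573 points at 10000 up to 50000 and 0.00685 points for antisense. With CIRI2 it was -1482 hosts, -0.193 points for the top 10, -1.63 and -1.12 points for the 2 longest classes and 0.0891 points for introns. The cause was not tested.

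Of 120 single results 98 were called, 68 of these in every alternative that tested them, and 12 turned. With CIRI2 the circles of Zfp148 (0.29), Kat6b (0.083), Rbm4 (0.59), Elf2 (0.091), Tmem164 (-1.02) and Adarb1 (0.22) and the hosts Gria2 (0.064), Sipa1l1 (0.045), Dlg1 (-0.041) and Celf2 (-0.34) changed sign. Without a filter Dlg1 (-0.20) and Celf2 (-0.21) did so, and with 5 reads in 3 libraries Dlg1 (-0.060) and Celf2 (-0.074). Leaving out 1 pair gave log2 values of -0.330 to 0.0016 for the Adarb1 circle, -0.110 to 0.024 for Sipa1l1, -0.030 to 0.126 for Celf2, -0.101 to 0.016 for St18 and -0.262 to 0.019 for Npas3. ONT depth limits circles near the filter, where 20 CPM is a few reads.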
